A study of Mus musculus with 6 samples.

Results

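The 10 genes described here build the postsynaptic side of the neuromuscular junction and were followed in mouse quadriceps muscle. They are the acetylcholine receptor subunits Chrna1, Chrnb1, Chrnd, Chrne and Chrng, and the agrin pathway genes Agrn, Lrp4, Musk, Dok7 and Rapsn. They were chosen by symbol, not by measured value, and all 10 were found among the 33641 gene symbols of the expression table, as 49 transcript rows of which 5 were at 0 in every library. The comparison was between 3 male mice homozygous for an allele that copies rs6190, a coding variant of the human glucocorticoid receptor gene, (genotype "rs6190 allele +/+") and 3 male mice homozygous for the reference allele ("ref allele +/+", here WT), to ask which muscle transcripts differ with that allele. All 6 mice were littermates of heterozygous crosses, aged 4 months (about 16 weeks), and tissue was frozen at about ZT4, in the light phase of the day. The alleles are germline, so all cells of the muscle carry them. No strain or treatment is stated in the labels, and p-values measure the spread between these 6 samples. Values are in TPM, an abundance per unit of transcript length scaled to the same total in each library.

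At the neuromuscular junction the motor nerve releases agrin, which binds LRP4 on the muscle fibre and thereby activates the receptor tyrosine kinase MuSK. DOK7 is the cytoplasmic adaptor that activates MuSK, and rapsyn anchors the receptor clusters that form. The adult receptor holds alpha, beta, delta and epsilon subunits, whereas in fetal and denervated muscle gamma stands in the place of epsilon. Most of these genes are transcribed chiefly by the few nuclei under the synapse. Whole quadriceps RNA therefore averages them over the fibre, and fewer synaptic nuclei and less RNA per nucleus cannot be told apart.

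The libraries were first checked for composition. Skeletal muscle RNA dominated each one, with Acta1, the skeletal actin, between 16711 and 27969 TPM. WT replicate 3 stood apart. Its log2 values correlated with those of the other libraries across genes at 0.951 to 0.965, against 0.972 to 0.987 for the other pairs, genes not being independent replicates. The 10 slow-fibre markers summed to 207 TPM in it and to 1020 to 9157 TPM elsewhere. Depth, estimated from the spacing of low values, was about 15800000 fragments in WT replicate 2, the shallowest library, and 21800000 in homozygous replicate 1, the deepest. Over the 11099 tested genes the median log2 fold change, homozygous minus WT, was 0.26, and fold changes are to be read against that shift. Longer transcripts were shifted more, with a median of 0.12 for genes under 1000 nt and 0.39 for genes of 6000 nt or more.

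Upstream sequence shows the regulatory letters for which receptor genes are known. The windows run from 250 bases before to 50 bases after the RefSeq transcription start (GRCm38.p6). Such a window was found for 7 of the 10 genes, and those of 3 subunits are printed because they hold the textbook elements. Capitals mark the E-box variant CAGCTG, the kind of element that binds MyoD-family factors, and CCGGAA, the N-box that binds Ets-family factors in synaptic nuclei. The windows are Chrng at chr1:87205561-87205860 (plus strand), Chrna1 at chr2:73580289-73580588 (minus strand) and Chrne at chr11:70619145-70619444 (minus strand), each written 5′ to 3′ on the strand of the gene.
Chrng: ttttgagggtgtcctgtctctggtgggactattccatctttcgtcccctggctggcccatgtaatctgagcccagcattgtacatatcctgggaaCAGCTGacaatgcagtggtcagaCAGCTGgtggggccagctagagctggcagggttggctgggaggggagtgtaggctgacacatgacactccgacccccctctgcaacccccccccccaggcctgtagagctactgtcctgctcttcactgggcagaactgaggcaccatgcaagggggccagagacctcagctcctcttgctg
Chrna1: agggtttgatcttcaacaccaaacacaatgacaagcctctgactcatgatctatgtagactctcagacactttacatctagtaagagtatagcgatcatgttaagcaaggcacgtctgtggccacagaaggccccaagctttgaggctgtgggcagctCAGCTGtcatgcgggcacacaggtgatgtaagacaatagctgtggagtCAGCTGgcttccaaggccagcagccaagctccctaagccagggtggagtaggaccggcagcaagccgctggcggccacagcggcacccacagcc
Chrne: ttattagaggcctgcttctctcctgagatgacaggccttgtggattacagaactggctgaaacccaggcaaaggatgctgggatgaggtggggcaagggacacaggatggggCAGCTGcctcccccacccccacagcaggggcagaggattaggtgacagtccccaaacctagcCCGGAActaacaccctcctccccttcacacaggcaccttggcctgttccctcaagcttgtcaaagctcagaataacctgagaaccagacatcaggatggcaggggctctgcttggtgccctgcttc

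The fetal subunit Chrng held 2 copies of CAGCTG, beginning 155 and 132 bases before the start, and Chrna1 held 2, beginning 92 and 44 bases before it. Among all 32851 windows of 300 bases, 16.3% had at least 1 CAGCTG and 1.90% had 2 or more. Chrne had 1 CAGCTG, 138 bases before the start, and 1 CCGGAA, 76 bases before it, a motif found on either strand in 14.9% of windows. The 7 genes have 9 windows, of which 4 held CAGCTG and 1 held CCGGAA. The general E-box CANNTG, which includes CAGCTG, was in 7 of the 9 and in 72.3% of all windows. The hexamer AGAACA, the core of a glucocorticoid receptor site, searched on both strands, was in 0 of the 9 and in 19.0% of all windows. These matches describe letters in short windows only.

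The 10 genes spanned a wide range of abundance. Averaged over the 6 libraries, the order in TPM was Rapsn (22.6), Chrnb1 (20.7), Dok7 (11.0), Chrne (10.5), Musk (7.93), Chrna1 (3.42), Agrn (3.38), Lrp4 (2.65), Chrnd (0.785) and Chrng (0.0565). Only 2 neighbouring steps in that order had ranges that did not overlap, Chrnb1 over Dok7 and Chrnd over Chrng. Chrna1 and Agrn were level, with Chrna1 the higher in 1 of 6 libraries. Musk was above Chrna1, and Lrp4 above Chrnd, in 6 of 6 libraries although their ranges overlapped.

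**Figure D1:**
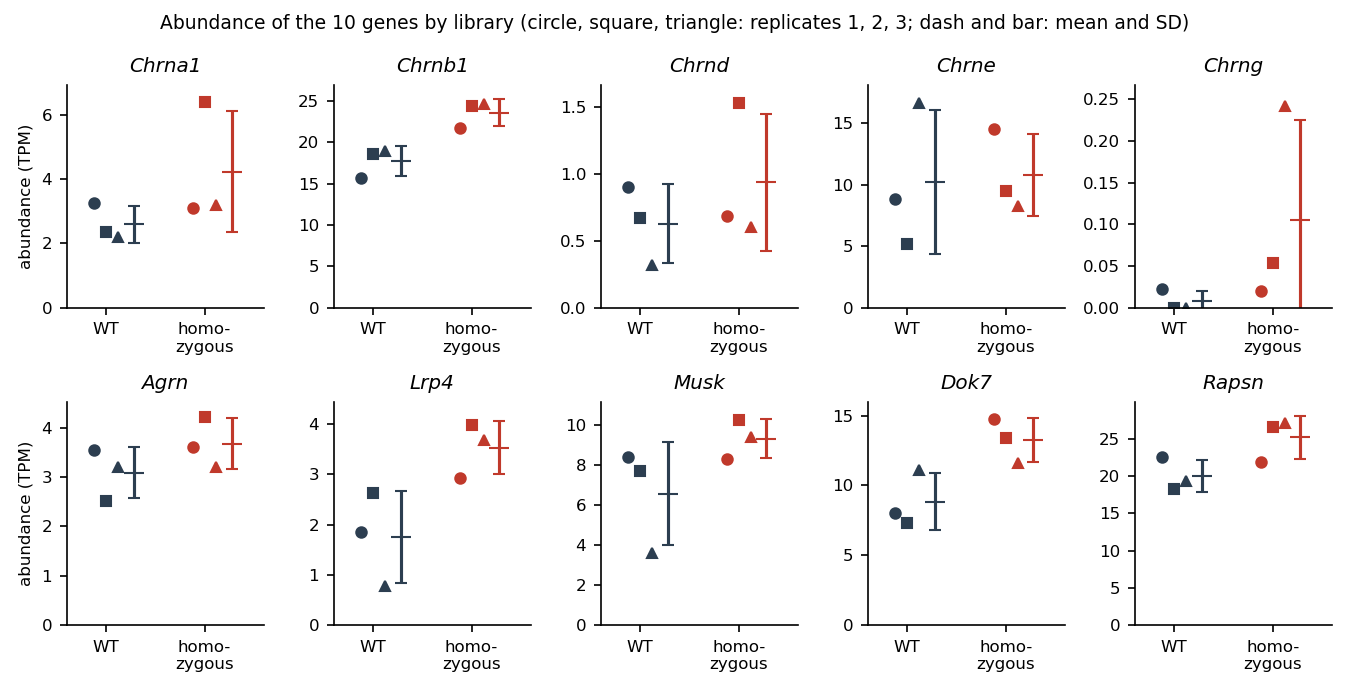
Abundance in TPM (vertical axis, linear, from 0) of the 10 genes in 3 WT and 3 homozygous libraries. Circles, squares and triangles are replicates 1, 2 and 3, and the dash with its bar is the mean and SD; the groups are separate for Chrnb1, Lrp4 and Dok7 and overlap for the other 7 genes.

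Among the subunits of the adult receptor, Chrnb1 was the most abundant and the only one whose groups were separate. Chrnb1, the beta subunit (chromosome 11, 69784036 to 69795943, minus strand, GRCm38), was at 21.7, 24.4 and 24.6 TPM in homozygous replicates 1, 2 and 3 and at 15.6, 18.6 and 19.0 TPM in WT replicates 1, 2 and 3. The lowest homozygous library lay above the highest WT library. With mitochondrial transcripts left out and the rest rescaled, the groups overlapped. Group means stood at 23.6 ± 1.64 and 17.7 ± 1.81 TPM (SD, n = 3 each). On the log2 scale homozygotes exceeded WT by 0.39 (SE 0.14), 0.13 more than the median gene. This difference did not pass the test over all genes (limma, adjusted p 0.171).

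Chrna1, the subunit that carries the acetylcholine-binding sites (chromosome 2, 73563215 to 73580338, minus strand), was at 3.12, 6.40 and 3.19 TPM among homozygotes and at 3.25, 2.35 and 2.19 TPM among WT mice. The groups overlapped, and the gap between the means, 4.23 ± 1.87 and 2.60 ± 0.570 TPM (SD, n = 3 each), is widest at homozygous replicate 2. Its log2 fold change was 0.50 (SE 0.26; limma, adjusted p 0.254). Homozygous replicate 2 was also the library with the most slow-fibre RNA, at 9157 TPM for the 10 markers against 1683 and 2005 TPM in the other homozygous libraries, and with that score as a covariate the log2 fold change of Chrna1 was 0.042. Without homozygous replicate 2 it was 0.22. The part of fibre type in the Chrna1 values was not tested beyond this.

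Chrne, the epsilon subunit of the adult receptor (chromosome 11, 70614883 to 70619216, minus strand), was at 14.6, 9.50 and 8.25 TPM among homozygotes and at 8.85, 5.20 and 16.7 TPM among WT mice. WT replicate 3 was the highest and WT replicate 2 the lowest of all 6, so the homozygous values lay within the WT range. Its log2 difference of 0.16 (SE 0.37; limma, adjusted p 0.780) changed sign with other scalings, to -0.14 with median centring and -0.11 with quantile normalization, and was 0.55 without WT replicate 3. A gene on the opposite strand, 4930544D05Rik (70615848 to 70616890), lies within Chrne. Whether the quantification used strand is not stated, so reads of this pair may be mixed.

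Chrnd, the delta subunit (chromosome 1, 87190607 to 87200070, plus strand), was at 0.686, 1.53 and 0.603 TPM among homozygotes and at 0.902, 0.670 and 0.317 TPM among WT mice. It reached 1 TPM in 1 library and so lay under the filter for the test, which asked for 1 TPM in at least 3 libraries. The groups overlapped, and homozygous replicate 2 was again the highest. Per unit of length Chrnd stood at 0.145 to 0.285 times the Chrna1 level in each library, while Chrnb1 stood at 3.82 to 8.65 times and Chrne at 1.48 to 7.61 times that level.

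The fetal subunit Chrng (chromosome 1, 87204657 to 87212694, plus strand) was close to undetected. It was at 0.0207, 0.0538 and 0.242 TPM among homozygotes, while WT replicate 1 had 0.0226 TPM and WT replicates 2 and 3 were listed at 0. By the depth estimate these values stand for about 1, 2 and 4 fragments among homozygotes and 1 in WT replicate 1. A count of 0 fragments allows up to 3, or 0.0712 to 0.0772 TPM among WT mice at 0, and 5 of the 6 libraries were at or under their own limit of 3 fragments. No fold change is given for that reason. Chrng made up at most 2.85% of the summed TPM of Chrng and Chrne in any library.

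The agrin pathway held the other separate pair, Lrp4 and Dok7. Lrp4, the agrin receptor that partners MuSK (chromosome 2, 91457511 to 91513779, plus strand), was at 2.94, 3.98 and 3.69 TPM among homozygotes and at 1.85, 2.63 and 0.786 TPM among WT mice. Every homozygous library exceeded every WT library, and WT replicate 3 was far the lowest. The groups overlapped once mitochondrial transcripts were left out and the rest rescaled. Group means stood at 3.54 ± 0.537 and 1.75 ± 0.924 TPM (SD, n = 3 each). The log2 difference of 0.77 (SE 0.27) was 0.51 above the median of all genes and did not pass the test (limma, adjusted p 0.171). Without WT replicate 3 it was 0.49, with a transcript length trend removed 0.37, with the slow-fibre score as a covariate 0.32 and with a pseudocount of 0.1 it was 1.11. The main Lrp4 transcript, ENSMUST00000028689.3, is 7926 nt long, and length moves with the fold changes of all genes as given above; its part in the Lrp4 value was not tested further.

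Dok7, the adaptor that activates MuSK from inside the cell (chromosome 5, 35056766 to 35087839, plus strand), was at 14.8, 13.4 and 11.6 TPM among homozygotes and at 8.03, 7.33 and 11.1 TPM among WT mice. The groups were separate, though homozygous replicate 3 and WT replicate 3 lay close together. Group means stood at 13.2 ± 1.59 and 8.83 ± 2.03 TPM (SD, n = 3 each). Homozygotes exceeded WT by 0.55 (SE 0.18) on the log2 scale, 0.28 more than the median gene, with an adjusted p of 0.171 in limma. Without WT replicate 3, the WT library nearest to the homozygous group, it was 0.71.

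Musk, the kinase itself (chromosome 4, 58285960 to 58374303, plus strand), was at 8.29, 10.2 and 9.39 TPM among homozygotes and at 8.37, 7.69 and 3.60 TPM among WT mice. WT replicate 1 lay inside the homozygous range, and WT replicate 3 was the lowest of the 6. Its log2 difference of 0.51 (SE 0.27; limma, adjusted p 0.258) was 0.19 without WT replicate 3. It was -0.020 with the slow-fibre score as a covariate. That covariate did not lower every member. With it the log2 difference was 0.76 for Chrne, 0.76 for Dok7 and 0.44 for Chrnb1, each above its value without it. For Rapsn and Agrn it was 0.20 and 0.11, each below.

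Rapsn, which tethers receptors to the cytoskeleton (chromosome 2, 91035620 to 91045729, plus strand), was at 21.9, 26.6 and 27.1 TPM among homozygotes and at 22.5, 18.3 and 19.3 TPM among WT mice. The groups overlapped through homozygous replicate 1 and WT replicate 1. The log2 difference was 0.32 (SE 0.15; limma, adjusted p 0.222), and 0.015 after median centring. The 8 Rapsn rows form 4 pairs with the same value in every library, and 1 row of each pair is not in the GENCODE M21 annotation. Among the 30 genes of the table that consist of 1 such pair, 60.7% of 28 low values were within 0.03 of a whole number plus 0.5 fragments per row, against 32.1% near a whole number. That is how reads divided equally over identical sequences look, and the sum over rows was used as the level of Rapsn. Gm13778, on the opposite strand, overlaps its 3′ end.

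Agrn, the proteoglycan agrin (chromosome 4, 156165290 to 156197488, minus strand), was at 3.60, 4.22 and 3.20 TPM among homozygotes and at 3.55, 2.52 and 3.19 TPM among WT mice. WT replicate 1 lay inside the homozygous range, and WT replicates 2 and 3 below it, replicate 3 only just. The groups were separate without WT replicate 1 or without homozygous replicate 3. The log2 difference of 0.20 (SE 0.17; limma, adjusted p 0.462) was below the median of all genes by 0.069 and changed sign to -0.11 with median centring, -0.099 with quantile normalization and -0.18 with the length trend removed.

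Counted together, 8 of the 10 genes passed the filter on low values. None of the 8 was past an adjusted p of 0.05 (limma), nor was any other gene, 0.0% of those tested. All 8 were higher among homozygotes on the log2 scale, as were 85.8% of all tested genes. At an unadjusted p under 0.05 (limma) 3 of the 8 were higher, Chrnb1, Lrp4 and Dok7 (p 0.0198, 0.0197 and 0.0167), where 23.7% of all tested genes were. The same 3 had separate groups, where 34.7% of all tested genes had the homozygous libraries above. Mitochondrial transcripts were 14.3% to 33.9% of each library's TPM. With them left out and the rest rescaled, 1 of 9 tested members, Dok7, had separate groups, against 19.6% of all tested genes. Chrnb1 and Lrp4 then overlapped. At an unadjusted p under 0.05 (limma) 2 members were higher there, Lrp4 and Dok7, against 9.7% of all tested genes. The unadjusted count was 1 without homozygous replicate 2, against 9.7% of all tested genes, and 1 without homozygous replicate 3, against 12.2%, and separate groups were seen for 5 members without homozygous replicate 1, where 46.6% of all tested genes were separate with the homozygous libraries above, and for 7 without WT replicate 1, where 44.8% were. The median log2 fold change of the 8 was 0.45, against 0.26 over all genes, and 0.14 against -0.037 after median centring, under which 6 of the 8 were above 0, and Chrne and Agrn below it. Under that centring 0 of the 8 were past the unadjusted threshold, with log2 differences of 0.093 for Chrnb1, 0.47 for Lrp4 and 0.25 for Dok7. Array weights, which gave WT replicate 3 a weight of 0.199, were the only alternative with members past the threshold. There Chrnb1, Lrp4 and Dok7 had adjusted p-values of 0.0421, 0.0482 and 0.0416 (limma), with 7.3% of all tested genes past it.

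**Figure D2:**
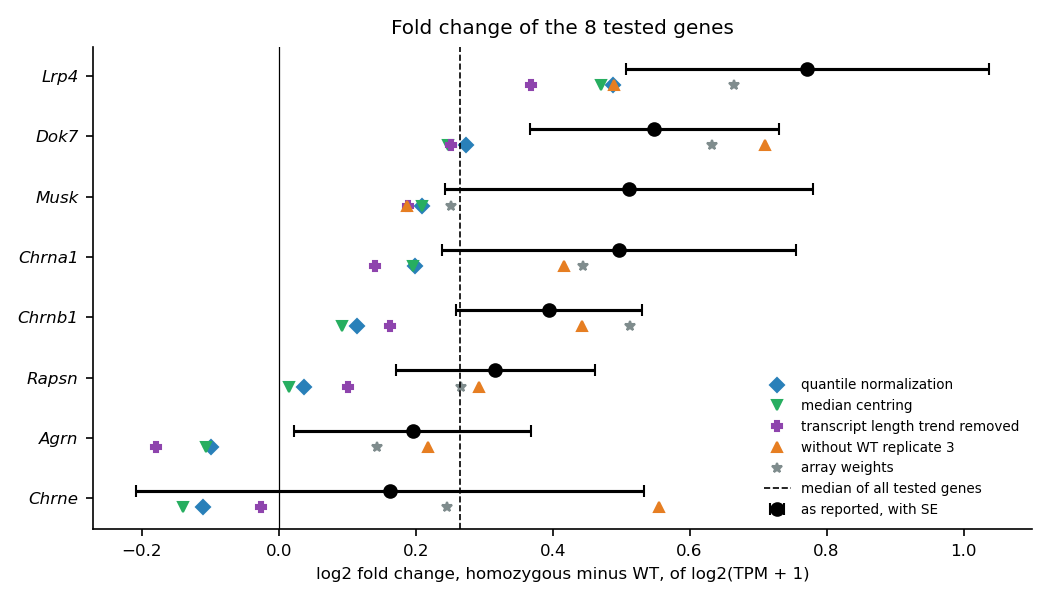
Log2 fold change, homozygous minus WT, of log2(TPM + 1) for the 8 tested genes (horizontal axis). Black circles with bars are the reported values with SE, coloured symbols are 5 alternatives, and the dashed line is the median of all tested genes at 0.26; Lrp4, Dok7, Musk, Chrna1, Chrnb1 and Rapsn stay above 0 in every setting drawn, and Agrn and Chrne do not.

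The gene total of Agrn overlapped between groups, as did the shares of 5 of its 6 rows above 0, while the share of a retained-intron row did not. Agrin made by motor neurons carries short insertions, some of which non-neural agrin lacks and which give it strong receptor-clustering activity. The exons below were not assigned to nerve or muscle, and their activity was not tested. The table resolved 1 coding row, ENSMUST00000105575.8, with 38 exons, that contains the 12 nt, 24 nt and 33 nt exons absent from the 35-exon coding row ENSMUST00000105574.8. The exons are printed whole, in capitals, because they are the short insertions of the 38-exon row; the 33 nt exon is in that row alone, the 12 nt exon also in ENSMUST00000181062.7 and the 24 nt exon also in ENSMUST00000154494.7. They are the 12 nt exon at chr4:156169546-156169557, the 24 nt exon at chr4:156168546-156168569 and the 33 nt exon at chr4:156167777-156167809, all GRCm38, minus strand, from the GENCODE M21 transcripts.
Agrn 12 nt exon: AAATCCCGCAAG
Agrn 24 nt exon: CGAGCTGACCAATGAGATCCCAGC
Agrn 33 nt exon: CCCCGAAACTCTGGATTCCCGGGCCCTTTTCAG

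The 38-exon row was at 0.556, 0.0556 and 0.315 TPM among homozygotes, at 0.0763 and 0.0244 TPM in WT replicates 1 and 2 and practically 0 in WT replicate 3. Homozygous replicate 2 lay inside the WT range, so the groups overlapped. As a share of Agrn it was 15.5%, 1.32% and 9.84% among homozygotes and at most 2.15% among WT mice. It was under the filter, and fitted unfiltered it differed by 0.32 on the log2 scale (SE 0.16; limma, adjusted p 0.647). This row and its exons were chosen after their values were seen. Rows with the 12 nt exon made up 24.4%, 10.1% and 19.0% of Agrn among homozygotes and 9.18%, 6.68% and 9.08% among WT mice, with the homozygous libraries above. Rows with the 24 nt exon made up 33.8%, 12.4% and 27.9% against 46.8%, 39.7% and 37.2%, with the homozygous libraries below, since the retained-intron row described next also holds that exon. The 9 Schwann cell markers summed to 80.0, 111 and 30.1 TPM among homozygotes and 19.6, 26.4 and 16.8 TPM among WT mice; their part in the values of this row was not tested.

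Another Agrn row went the other way from the gene total. ENSMUST00000154494.7, a 2071 nt transcript of the 3′ end annotated with a retained intron, was at 0.659, 0.466 and 0.578 TPM among homozygotes and at 1.58, 0.977 and 1.19 TPM among WT mice. Every homozygous library was below every WT library. Correspondingly, protein-coding rows made up 65.8%, 75.3% and 64.4% of Agrn among homozygotes and 41.8%, 49.4% and 45.5% among WT mice. The mean shares were 68.5% ± 5.92 and 45.6% ± 3.78 (SD, n = 3 each), and the difference of 22.9 percentage points stayed between 19.5 and 25.0 when any 1 library was left out. The coding shares of Musk, Dok7, Chrne, Chrnb1, Rapsn and Lrp4 overlapped between groups. Among coding shares, libraries were left out for that of Agrn alone. The remaining coding rows overlapped between groups: ENSMUST00000180572.1 was at 1.18 ± 0.462 against 0.898 ± 0.397 TPM (SD, n = 3 each), and ENSMUST00000105574.8 ranged from 0.311 to 1.74 TPM among homozygotes and from 0.0608 to 0.862 TPM among WT mice. The retained-intron row also lay under the filter, and fitted unfiltered it differed by -0.51 on the log2 scale (SE 0.19; limma, unadjusted p 0.0358, adjusted p 0.647). It averaged 1 TPM or more, and so was named, only through the WT group, with means of 1.25 TPM there and 0.568 TPM among homozygotes. Its separation, its p-value and the coding shares of Agrn are therefore descriptions and not support for a difference. Separate groups with the homozygous libraries below were seen for 2.11% of all tested isoforms, which do not include this row. Without the filter they were seen for 1155 of 70819 isoforms. The coding rows above 0 are 6891 to 7262 nt long, and the shift of long transcripts described above moves in the same direction as these shares; its part in them was not tested.

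The lowest p-value among the member isoforms belonged to Dok7. ENSMUST00000101298.8 is a coding row of 5 exons and 2443 nt. It lacks 2 internal exons of 231 and 201 nt present in the main row ENSMUST00000114270.7, at chromosome 5, 35064334 to 35064564 and 35066450 to 35066650. It also lacks a 127 nt exon of the main row, at 35056862 to 35056988, which no other Dok7 row holds. It was at 1.20, 1.32 and 1.21 TPM among homozygotes, and among WT mice it reached 0.125 TPM in replicate 3 and stood at 0 in replicates 1 and 2. The homozygous values lay close together and well above all 3 WT values. This made a log2 difference of 1.11 (SE 0.25; limma, unadjusted p 0.00344), but over 21165 tested isoforms the adjusted p was 0.252, and 0.154 to 0.893 under the alternatives. The row reached 1 TPM, and so entered the test, only through the 3 homozygous libraries. Its p-value is therefore a description and not support for a difference. The main row was at 10.6, 8.13 and 8.46 TPM among homozygotes and 5.55, 6.15 and 7.91 TPM among WT mice, with separate groups (log2 difference 0.42, SE 0.19; limma, adjusted p 0.339). It has 7 exons and made up 60.7% to 83.9% of Dok7 in each library, while the 9-exon row with the longest coding sequence, ENSMUST00000050709.3, made up 6.94% to 12.7%. The retained-intron row ENSMUST00000155097.1 was at 0.362 to 1.87 TPM, with overlapping groups.

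**Figure D3:**
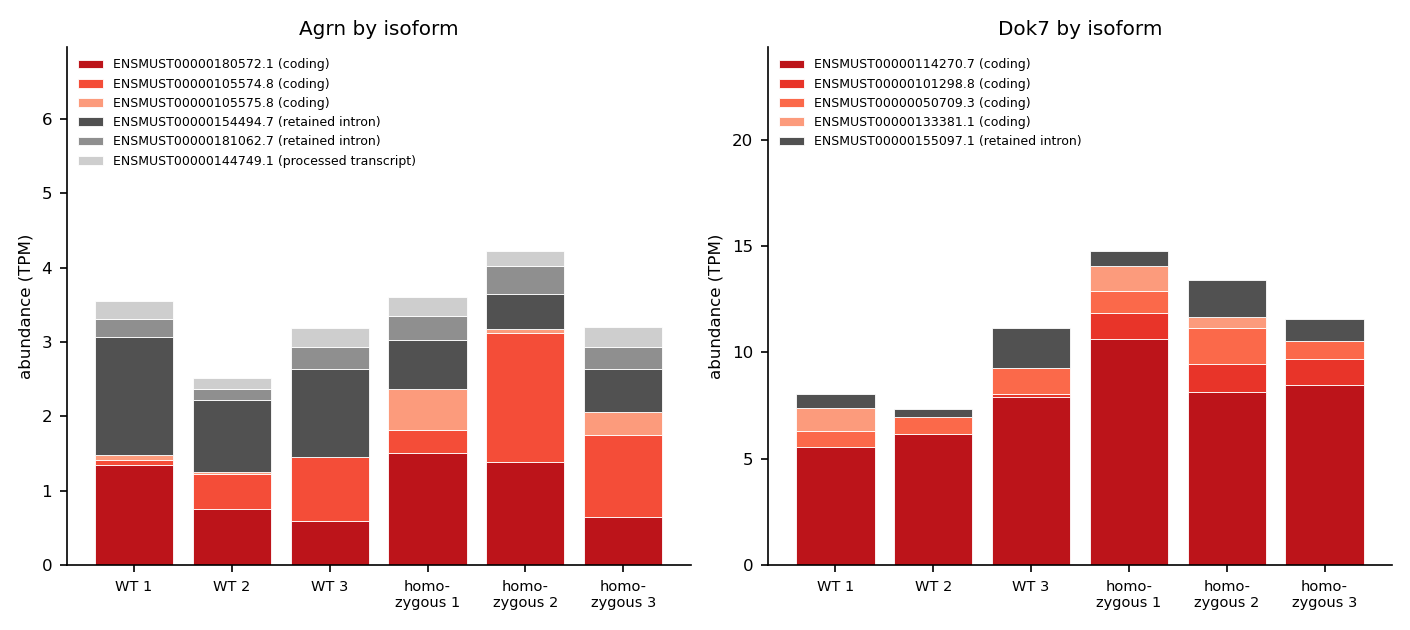
Stacked abundance in TPM of the isoform rows of Agrn and Dok7 above 0 (vertical axis, from 0) in each of the 6 libraries, red for coding rows and grey for others. The dark grey Agrn row ENSMUST00000154494.7 is thicker in all 3 WT libraries (0.977 to 1.58 TPM) than in the homozygous ones (0.466 to 0.659 TPM), and the Dok7 row ENSMUST00000101298.8 is near 0 among WT mice.

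For Musk the main row, ENSMUST00000084578.11, was at 5.56, 6.11 and 5.49 TPM among homozygotes and 4.25, 4.56 and 1.18 TPM among WT mice. Those groups were separate where the gene totals overlapped, by a log2 difference of 0.75 (SE 0.38; limma, adjusted p 0.362). Rows with a 30 nt exon at chr4:58327326-58327355 made up 22.7%, 32.2% and 32.4% of Musk among homozygotes and 40.7%, 33.0% and 38.0% among WT mice, a small separation with homozygous replicate 3 and WT replicate 2 nearly level. The Musk rows ENSMUST00000098057.9 (0.0529 to 1.80 TPM) and ENSMUST00000177951.7 (0 to 3.20 TPM) hold that exon and overlapped between groups.

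Of the 4 Chrnb1 rows, the coding row ENSMUST00000045971.8 was at 16.2, 17.1 and 16.8 TPM among homozygotes and 12.5, 12.5 and 13.6 TPM among WT mice, and the retained-intron row ENSMUST00000154816.1 at 3.07, 4.16 and 3.54 TPM against 2.03, 2.62 and 2.02 TPM. Both had separate groups (limma, adjusted p 0.295 and 0.306), and the other two, ENSMUST00000129381.1 and ENSMUST00000147791.1, overlapped. The coding share of Chrnb1 was 67.2% to 80.2% and overlapped as well. The main Lrp4 row ENSMUST00000028689.3 held 77.2% to 95.2% of Lrp4 and had separate groups like the gene. All 4 Chrne rows, ENSMUST00000014753.8, ENSMUST00000102556.9, ENSMUST00000134836.1 and ENSMUST00000135920.1, overlapped between groups, with adjusted p-values of 0.638 to 0.972 (limma). Of the Rapsn rows, ENSMUST00000111445.9 and its same-valued partner were separate, at 1.83, 2.50 and 1.91 TPM against 1.37, 1.27 and 0.815 TPM, while the main row ENSMUST00000050323.5 (6.22 to 10.7 TPM) and the minor row ENSMUST00000111446.9 (0 to 1.79 TPM) overlapped.

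Over all members, 22 isoform rows were tested and 0 passed, against 0.0425% of all tested isoforms (0 with array weights too, against 0.0661%); 21 of the 22 had a log2 fold change above 0, as had 76.7% of all. Unadjusted, 6 of the 22 were higher at p under 0.05 (limma), where 14.2% of all isoforms were, and 0 were lower, where 1.52% were; 2 of the 6 are a same-valued Rapsn pair and count as 1 measurement. Separate groups with the homozygous libraries above were seen for 8 of the 22, against 25.6% of all isoforms. The same Rapsn pair is among the 8. The 22 also hold the main Rapsn row and its same-valued partner, so these counts include repeated measurements. The 6 and the 8 both include the Dok7 row ENSMUST00000101298.8, which passed the filter only through the homozygous libraries. How reads were shared out between overlapping isoforms is an estimate of the quantifier, and rows of 1 gene are not independent.

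The genes around the agrin pathway were read from lists, and 0 of their genes passed the test over all genes. Of the MuSK-downstream and scaffold genes, 17 of 19 were tested. Unadjusted (limma, p under 0.05), 6 were higher and 1 lower among homozygotes, where 23.7% and 0.55% of all tested genes were, and the list median was 0.39. Camk2b, a kinase subunit abundant at the synapse, was at 68.7 ± 3.46 against 41.5 ± 7.97 TPM (SD, n = 3 each; log2 fold change 0.73, SE 0.16; limma, adjusted p 0.168). Apc, reported to bind the receptor's beta subunit, was at 6.05 ± 1.20 against 2.70 ± 0.943 TPM with separate groups, and the phosphatase gene Ptpn11 was at 26.2 ± 2.97 against 17.4 ± 3.83 TPM, also separate. The 1 lower gene was Pak1, a kinase downstream of MuSK, at 6.83 against 10.7 TPM with overlapping groups and a log2 fold change of -0.61; it was chosen after its value was seen.

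The list of membrane and cytoskeleton genes of the synapse was higher among homozygotes at each tested gene, though 0 passed the adjusted test. Of 14 genes 12 were tested, all 12 had a log2 fold change above 0, 8 were higher at an unadjusted p under 0.05 (limma) and 9 had separate groups. Over all tested genes these shares were 85.8%, 23.7% and 34.7%. Its median log2 fold change was 0.55, or 0.28 above that of all genes. Plec, which encodes the linker plectin, was at 53.5 ± 8.73 against 32.4 ± 0.820 TPM (SD, n = 3 each; log2 fold change 0.70, SE 0.15; limma, adjusted p 0.168). Ank3, for ankyrin-G, was at 22.1 ± 4.27 against 14.2 ± 1.93 TPM, and Scn4a, the muscle sodium channel concentrated at the endplate, at 74.9 ± 11.8 against 50.3 ± 9.91 TPM, both with separate groups. As background, many of these proteins are also found along the whole fibre. Longer transcripts were shifted more, to a median of 0.39 for genes of 6000 nt or more, and the part of length in this list was not tested.

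Genes of the synaptic basal lamina had the lowest median of the lists drawn. Of 15 genes 12 were tested, and their median log2 fold change of 0.15 was 0.12 less than that of all genes. At an unadjusted p under 0.05 (limma) 1 was higher, where 23.7% of all tested genes were. That gene was Lama2, the laminin alpha chain of muscle, at 7.24, 9.47 and 8.57 TPM against 5.15, 6.98 and 3.68 TPM (log2 fold change 0.62, SE 0.22; limma, adjusted p 0.172). The smallest p-values after it were those of Lamb1, at 3.63 ± 0.173 against 2.60 ± 0.545 TPM with separate groups, and Lamb2, the laminin chain enriched at the synapse, at 27.6 ± 4.13 against 23.1 ± 3.32 TPM.

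Of the synaptic nucleus, neuregulin and Ets genes, 7 of 13 were tested, with a median of 0.26. Gabpa, the Ets-family subunit that binds N-boxes, was at 9.81 ± 2.32 against 5.53 ± 2.73 TPM with separate groups (SD, n = 3 each; log2 fold change 0.81, SE 0.33; limma, adjusted p 0.197). Prkar1a, a regulatory subunit of protein kinase A, was at 33.1 ± 4.93 against 25.7 ± 6.79 TPM and Etv5 at 2.84 ± 0.673 against 2.19 ± 0.269 TPM, both with overlapping groups. All 5 glycosylation genes of congenital myasthenia were tested. Of all tested genes 23.7% were higher and 0.55% lower at an unadjusted p under 0.05 (limma), against 0 of these 5. The list median was 0.26. The smallest p-values among them were those of Gfpt1, at 7.04 ± 0.485 against 5.22 ± 2.33 TPM, Gmppb, at 1.85, 4.56 and 3.27 against 1.58, 3.20 and 1.23 TPM, and Dpagt1, at 6.26 ± 1.13 against 5.03 ± 0.834 TPM. Of 10 receptor subunit genes known mainly from neurons and sensory cells, only Chrna10 passed the filter, at 2.76 ± 1.06 against 1.94 ± 0.915 TPM with overlapping groups.

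Denervation raises Chrng, Chrna1, Myog and Ncam1 together, so a denervation list was read beside the members. Of 16 genes 12 were tested. At an unadjusted p under 0.05 (limma) 2 were higher and 1 lower, where 23.7% and 0.55% of all tested genes were. The list's share higher was 16.7%, and its median log2 fold change was 0.60 against 0.26 over all genes. The higher pair was Ankrd1, a stress-responsive ankyrin repeat gene, at 14.9 ± 7.04 against 2.29 ± 0.799 TPM (SD, n = 3 each; log2 fold change 2.19, SE 0.36; limma, adjusted p 0.168), and Hdac4, at 14.1 ± 4.23 against 6.63 ± 2.75 TPM. Myog, the myogenic factor that drives receptor genes after denervation, was at 1.42, 2.69 and 2.54 TPM among homozygotes and at 3.10, 3.66 and 3.66 TPM among WT mice. Every homozygous library was below every WT library, a pattern seen in 0.73% of tested genes, by a log2 difference of -0.50 (SE 0.20; limma, adjusted p 0.194). Ncam1 was at 2.27, 3.54 and 7.06 TPM against 1.67, 0.868 and 3.63 TPM, with overlapping groups (named outside the rule, after its values were seen).

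Markers of other cells were measured beside these genes. Schwann cells cover the nerve terminal, and of their 9 markers 4 were tested. All 4 were higher at an unadjusted p under 0.05 (limma) with separate groups, against 23.7% higher and 34.7% separate among all tested genes. Of the markers under the filter, Prx, Sox10 and Ncmap also had separate groups, and S100b and Mag overlapped. Mbp, which encodes a myelin protein, was at 13.8 ± 7.67 against 3.87 ± 1.27 TPM and Pmp22, another myelin gene, at 23.9 ± 9.79 against 9.65 ± 2.87 TPM (SD, n = 3 each; limma, adjusted p 0.168 for both). The summed markers ranged from 30.1 to 111 TPM among homozygotes and from 16.8 to 26.4 TPM among WT mice, and all 9 were above 0 in every library but Ncmap, listed at 0 in WT replicate 3. The 6 endothelial markers summed to 42.1 to 50.1 TPM against 33.7 to 47.6 TPM, and the 6 immune markers to 6.91 to 10.01 TPM against 3.20 to 7.12 TPM. Of the immune markers 2 were tested, the macrophage genes Cd68 and Csf1r. Both were higher with separate groups (limma, unadjusted p 0.0151 and 0.0372, adjusted p 0.168 and 0.191), against 23.7% higher and 34.7% separate among all tested genes. The other immune markers lay under the filter. Ptprc, Adgre1 and Cd3e overlapped between groups. Cd79a, at most 0.103 TPM, was lower in every homozygous library than in every WT library. The part of nerve content or other cells in the member values was not tested.

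**Figure D4:**
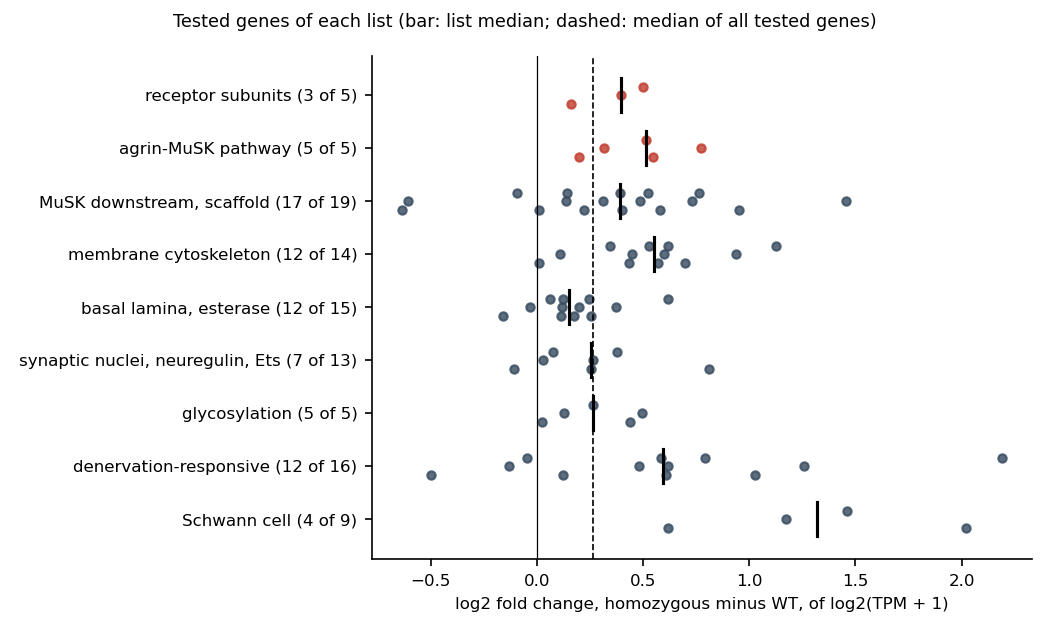
Log2 fold change, homozygous minus WT, of log2(TPM + 1) for each tested gene (points, horizontal axis) of the receptor and agrin pathway genes (red) and of the lists read beside them (dark), with the number tested of the number listed. Bars are list medians and the dashed line is the median of all tested genes at 0.26; the membrane cytoskeleton list (median 0.55) and the Schwann cell markers (median 1.32) lie to its right, and the basal lamina list (0.15) to its left.

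The members did not share 1 pattern over the libraries. On the log2(TPM + 1) scale, Lrp4 and Musk ran most alike, with r = 0.93 over the 6 libraries, while Chrne and Musk had r = -0.54. These are descriptions over 6 libraries that include WT replicate 3, the lowest library for Lrp4 and Musk and the highest for Chrne. Among 11091 tested genes outside the set, those most like Chrna1 were Kank1 (r = 0.991), Ggnbp2 (r = 0.987) and Flot1 (r = 0.986), and those most like Musk were Smndc1 (r = 0.999), Ssu72 (r = 0.998) and Eny2 (r = 0.998). Musk had 796 such genes at r above 0.95 and Chrna1 had 54. All 3 genes named for Musk were lowest in WT replicate 3, as Musk was.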

How the data were processed

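Polyadenylated RNA of 6 quadriceps muscles was sequenced with a strand-keeping kit, per the labels. The authors deposited 1 table of TPM values, abundances per length scaled to a fixed total, with 105129 transcript rows; the submitters' processing notes name FastQC, Trimmomatic, HISAT2, kallisto and the build mm10, without versions. The quantified annotation is not named; 103635 rows matched GENCODE M21 (GRCm38), version suffix ignored. TPM was summed per gene symbol. Features reaching 1 TPM in 3 or more libraries were tested as log2(TPM + 1) with limma 3.58.1 in R 4.3.3 (trend and robust, Benjamini-Hochberg over all features, threshold 0.05), so that fold changes of low genes are understated. Scripts were tested on simulated data. There the gene-level test recovered 0% of log2 changes of 0.5, 43.5% of those of 1 and 91% of those of 2. A difference of about 0.5 can therefore be present and not pass the threshold. Depth was estimated from low values, 66.1% to 69.0% of which lay within 0.03 of whole fragments against 6% by chance; fragment limits cover counting error only, and no count test was run.

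The members and lists were chosen with earlier results of these data known. Named were the 10 members, from each list up to 3 tested genes of smallest p, the 3 genes most correlated with Chrna1 and with Musk, and member isoforms averaging 1 TPM or more in either group; the exceptions are named as such, and 1 gene that the rule names is not reported here. Alternatives covered scaling, filter, pseudocount, replicate block, array weights, mitochondrial transcripts, transcript length, a slow-fibre covariate and each library left out. Promoter windows came from RefSeq (GRCm38.p6).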

Additional observations from a re-analysis of the deposited data

How the results depend on the processing

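No gene (0) was past the threshold, which became 810 with array weights, 3 of them members, and ranged from 0 to 2 when 1 library was left out (2 without WT replicate 1, 1 without WT replicate 2). The member count was 0 under every other alternative run. Of all isoforms 9 were past the threshold, against 3 with quantile normalization, 5 with median centring, 0 without a filter, 4 with a pseudocount of 0.1, 14 with array weights, 4 after removal of the length trend, 5 with mitochondrial transcripts left out, 0 with the slow-fibre covariate and 0 to 36 when 1 library was left out (36 without WT replicate 1, 10 without WT replicate 2, 1 without homozygous replicate 3, 0 without each of the others); member isoforms were at 0 throughout. The log2 fold change of Chrne changed sign with median centring (-0.14), quantile normalization (-0.11) and length trend removal (-0.026), and without homozygous replicate 1 (-0.058) and without WT replicate 2 (-0.20), and was 0.55 without WT replicate 3. That of Agrn did so with quantile normalization (-0.099), median centring (-0.11) and the length trend removed (-0.18), and that of Musk with the slow-fibre covariate (-0.020). The cause of these shifts was not tested. Of the genes at an unadjusted p under 0.05, 97.7% were higher in the homozygous libraries, against 51.1%, 44.2% and 52.9% under quantile, median and length adjustment in that order. With the replicate number as a block, 0 genes and 0 isoforms were past the threshold; same-numbered libraries correlated in their deviations at -0.0712, 0.061 and -0.0132, so the numbers were not taken to pair the mice. Chrng and Chrnd lie too low in these libraries for a tested difference.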
